A study of Caenorhabditis elegans with 24 samples.

Results

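The 10 genes described here, nduo-1 to nduo-6, ctb-1 and ctc-1 to ctc-3, are protein-coding genes of the mitochondrial genome of Caenorhabditis elegans. They were taken by name from a table of 46739 annotated features, and all 10 were in it. The table holds whole-worm RNA levels from 24 libraries of poly(A)-selected RNA, 4 in each of 6 groups, and asks how blunt force injury changes the transcriptome over the days that follow. The labels give all worms as wild type (N2), kept at 25 °C and fed bacteria carrying cdc-25.1 RNAi, which blocks germ cell proliferation and leaves the adults without progeny. The data statements of the study also name N2 for the injury time course. Its figure legends for RNA sequencing at these times name CF512, a temperature-sensitive sterile strain. The study thus differs within itself on the strain, which leaves the strain and sterility treatment of these worms unsettled. Injured worms were agitated on day 1 of adulthood at 8600 rpm for 16 s, controls were handled in the same way without agitation, and RNA was collected 8, 48 and 96 h later. Each library came from a population of pooled worms, so the RNA of all tissues is mixed, and fewer cells of a type cannot be told apart from less RNA per cell. The labels call the 4 libraries of a group biological replicates without saying whether they came from separate cultures, so p-values measure the spread between these libraries only. Library numbers 1 to 4 below name the columns of the table and pair nothing between groups.

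The mitochondrial genome is a small circular DNA kept in many copies per cell, and in C. elegans all of its genes lie on the same strand. Its protein products are subunits of the respiratory chain and of ATP synthase, built together with a larger number of subunits that are encoded in the nucleus and imported. The nduo genes encode subunits of complex I (NADH dehydrogenase), ctb-1 encodes cytochrome b of complex III, and the ctc genes encode the catalytic core subunits of complex IV (cytochrome c oxidase). Transcripts are cut out of long precursors, largely at the transfer RNAs that separate the genes, and are read by ribosomes whose RNAs are mitochondrial and whose proteins are nuclear.

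Depth was estimated from the spacing of low values, and 23 libraries held 19550000 to 30150000 mapped reads. The remaining library, control 48 h library 4, gave no clear spacing. It also stood apart in nuclear ribosomal RNA, which took 46.1% of its reads, and its median gene lay 0.97 log2 units below the other libraries (log2 change -0.97). Nuclear ribosomal RNA took 5.08% and 7.82% in injured 8 h libraries 2 and 4 and 8.29% in control 48 h library 2. Elsewhere, in 20 libraries, it ranged from 0.659 to 2.99%. Transcripts of cdc-25.1, the gene targeted by the RNAi and a regulator of cell division, were higher in injured worms at 48 h by 2.26 log2 units (limma adjusted p = 0.00375). At 96 h they were higher by 1.75 log2 units (limma adjusted p = 0.0177), and at 8 h the change was 0.02 (limma adjusted p = 0.987). In control worms at 96 h its level ran from 17.6 to 156 RPKM.

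Along the genome (ce11, sequence MtDNA, 1-based, plus strand), nduo-6 (WBGene00010957) lies at 113 to 549, nduo-1 (WBGene00010959) at 1763 to 2635, nduo-2 (WBGene00010961) at 3389 to 4269, ctb-1 (WBGene00000829) at 4504 to 5621 and ctc-3 (WBGene00010962) at 5678 to 6449. They are followed by nduo-4 (WBGene00010963) at 6506 to 7808, ctc-1 (WBGene00010964) at 7827 to 9428, ctc-2 (WBGene00010965) at 9649 to 10348, nduo-3 (WBGene00010966) at 11356 to 11691 and nduo-5 (WBGene00010967) at 11691 to 13272. Each is annotated as a protein-coding gene with no intron. The small ribosomal RNA gene, listed as MTCE.7, lies at 898 to 1593 and the large one, MTCE.33, at 10403 to 11354. A gap of 1 base separates MTCE.33 from nduo-3, whose last base is the first base of nduo-5, so reads that cross these borders may have been assigned to either neighbour. The 22 transfer RNA features of the genome were listed at 0 in every library.

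Levels differed widely among the 10 genes. Values are in RPKM, reads scaled by exon length and by the mapped reads of the library, which allows genes of different length to be compared. The complex IV gene ctc-3 had the highest mean in all 6 groups and nduo-6, a complex I gene, the lowest, and the mean of ctc-3 was 203 to 540 times that of nduo-6 depending on the group. In control worms at 96 h the order was ctc-3, ctc-1, ctc-2, ctb-1, nduo-1, nduo-3, nduo-5, nduo-4, nduo-2 and nduo-6. In that order the libraries of ctc-2 and ctb-1 overlapped, as did those of nduo-3 and nduo-5, and the other neighbours were apart. In both groups at 48 h only ctc-3 from ctc-1 and nduo-2 from nduo-6 were apart among neighbours.

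The lowest gene, nduo-6, lay between 2.82 and 17 RPKM, which is 25.8 to 203 estimated reads in a library, whereas no other member fell below 59.4 RPKM or 1180 reads. Counting error is therefore largest for nduo-6. The 3 ctc genes together took 65.6 to 71.6% of the reads on the 10 genes in every library.

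**Figure D1:**
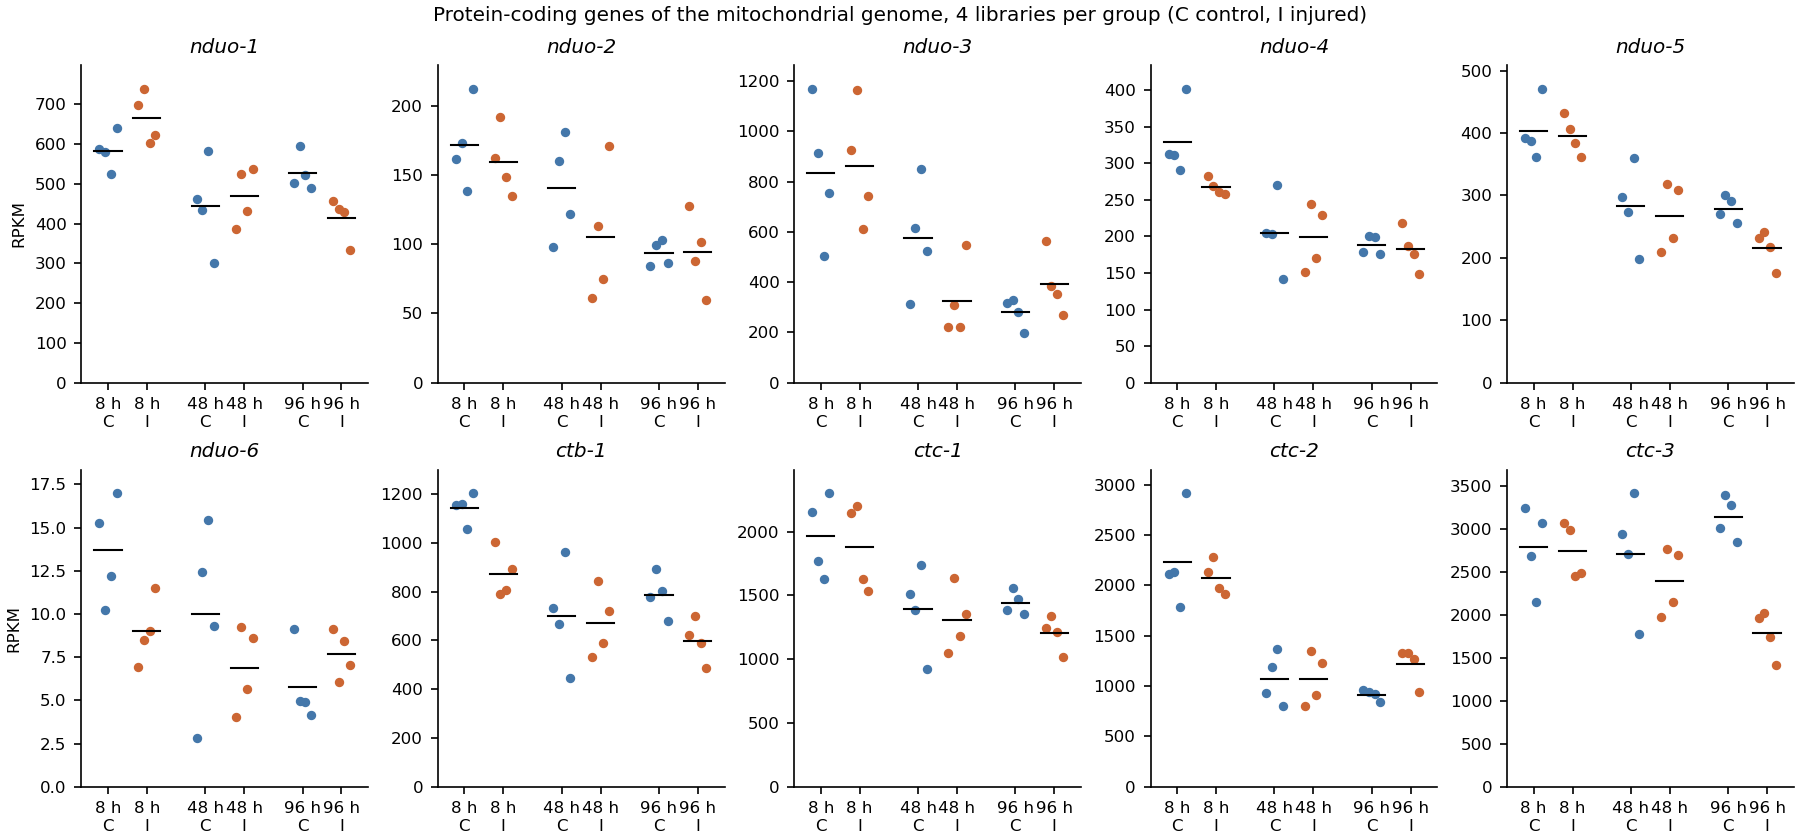
RPKM of each of the 10 protein-coding genes (vertical axes start at 0, with a scale per gene) in control (C, blue) and injured (I, orange) worms at 8, 48 and 96 h, with 1 point per library and a bar at the group mean. Most panels step down from 8 h to later times in both treatments, and ctc-3 stays near its 8 h level in controls at 96 h (mean 3131 RPKM) while the injured libraries lie below every control (mean 1787 RPKM).

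Since the RNA was selected by its poly(A) tails, the 10 genes were read against the library total. They took 0.84 to 1.17% of mapped reads in control worms at 8 h and 0.854 to 1.05% in injured worms at 8 h. At 48 h the ranges were 0.496 to 0.934% and 0.536 to 0.813%, where the lowest control was library 4, rich in nuclear ribosomal RNA, and at 96 h they were 0.692 to 0.822% and 0.483 to 0.664%. Control and injured libraries thus overlapped at 8 and 48 h and were apart at 96 h, where all 4 injured libraries lay below all 4 controls. This summed share follows the genes with most reads. At 96 h ctc-3 alone took a mean of 0.242% in controls and 0.138% in injured worms, beside 0.758 and 0.599% for all 10 genes. The mean log2 level, in which each of the 10 genes counts equally, overlapped at 96 h (8.17 to 8.46 in controls and 7.92 to 8.48 in injured worms). With the nuclear and mitochondrial ribosomal RNA features left out of the summed RPKM, the share at 48 h was 1.10 to 1.34% of the remaining total in controls and 0.744 to 1.10% in injured worms. The injured mean was then 0.724 of the control mean, against 0.789 for the share of the whole summed RPKM. For the share of mapped reads it was 0.925, and 0.797 with reads on nuclear ribosomal RNA left out. At 96 h the share was 0.971 to 1.09% of the remaining total in controls and 0.636 to 0.903% in injured worms, again without overlap. Transcript abundance and recovery by the poly(A) selection cannot be told apart in these data.

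At 8 h after injury none of the 10 genes passed the test, either higher or lower, at an adjusted p of 0.05 in limma over the 14813 features tested, and none had an unadjusted p under 0.05, where 22.4% of all features tested were called. Their log2 changes ran from -0.57 to 0.19 with a median of -0.08, beside -0.02 over all features. For ctb-1 the controls read 1154, 1161, 1057 and 1204 RPKM and the injured libraries 1004, 791.5, 808.2 and 892.8 RPKM. Every injured library lay below every control, although the difference did not pass limma (log2 change -0.39 ± 0.20 SE, adjusted p = 0.167). The same separation held for nduo-4, at 313.2, 312.2, 290.4 and 402.3 RPKM in controls and 282.8, 269, 260.9 and 258.2 RPKM after injury. These were 2 of 10 genes without overlap, against 26.4% of all features, and an exact permutation test of 4 against 4 libraries, two-sided, gave p = 0.0286 for each, the smallest it can give. With median-of-ratios scaling, which sets the typical feature level between libraries, 0 of 10 were without overlap at 8 h, against 29.2% of all features. In 3 of 13 alternative settings ctb-1 was called lower. With libraries set to the same RPKM total its log2 change was -0.41 (limma adjusted p = 0.0408). With the same total outside the mitochondrial genome and ribosomal RNA it was -0.39 (limma adjusted p = 0.0168). Of 14813 features 2253 and 2587 were lower in these 2 settings.

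At 48 h, nduo-3 was the only member called, lower in injured worms. Controls read 312.7, 617.4, 851 and 522.3 RPKM and injured worms 221.8, 306.9, 219.8 and 549.1 RPKM. The groups overlapped, since control library 1 lay near the low injured libraries and injured library 4 near the middle of the controls. The log2 change was -0.85 ± 0.31 SE (limma adjusted p = 0.0244), and it did not pass without the 4 libraries rich in nuclear ribosomal RNA (log2 change -0.78, limma adjusted p = 0.111). It was also lost when control 48 h library 2 or 3, or injured 48 h library 1 or 3, was left out (highest limma adjusted p = 0.0956). So 1 of 10 members was lower, where 10.2% of all features were called lower and 45.8% higher at this time. None of the 10 members was free of overlap between injured and control libraries at 48 h in the deposited scale, beside 43.3% of all features. With median-of-ratios scaling 4 of 10 (ctb-1, ctc-3, ctc-1 and nduo-5) had all injured libraries below all controls, beside 53.2% of all features without overlap.

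The count at 48 h depended on the scaling. The median of all features stood at 0.48 log2 units in the deposited scale, while the median of the 10 genes was -0.07. With median-of-ratios scaling the median of all features was 0.02 and that of the 10 genes -0.60. Then 9 of the 10 genes, all but nduo-6, were called lower, where 28% of features were called lower and 30.5% higher. Median-of-ratios scaling without the libraries rich in ribosomal RNA called 4. In the deposited scale, leaving out control 48 h library 1 gave 3 calls and leaving out injured 48 h library 4 gave 2. Relative to the typical feature, the 10 genes were thus lower after injury at 48 h under that scaling, and in the deposited RPKM 9 of them were not called.

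At 96 h, ctc-3 was called lower in injured worms. This gene encodes subunit III of cytochrome c oxidase, part of the enzyme that passes electrons to oxygen. Controls read 3012, 3389, 3274 and 2848 RPKM (3131 ± 246, SD, n = 4) and injured worms 1965, 2024, 1744 and 1413 RPKM (1787 ± 276). No injured library reached the lowest control, and the injured mean was 0.571 of the control mean. The log2 change was -0.82 ± 0.20 SE (limma adjusted p = 0.000501). It was called in all 13 alternative settings, where it ran from -0.86 to -0.72, and with each library of either group left out in turn, where the limma adjusted p stayed at or below 0.00436. This was 1 of 10 members, where 28.4% of all features were called lower at 96 h.

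Several other members had lower levels in injured worms without passing the test. For nduo-1 the controls at 96 h read 502.2, 594.7, 523.2 and 489.5 RPKM and the injured libraries 457, 436.3, 429 and 332.3 RPKM, apart but with a limma adjusted p of 0.1 (log2 change -0.36). For nduo-5 the controls read 269.5, 299.9, 290.7 and 255.4 RPKM and the injured libraries 230.9, 241.7, 217.8 and 175.3 RPKM (log2 change -0.37, limma adjusted p = 0.0891). The libraries of ctc-1 were apart as well, and its difference was smaller (log2 change -0.27, limma adjusted p = 0.245). In all, 4 of 10 members (nduo-1, ctc-3, ctc-1 and nduo-5) had injured libraries below all controls, where 66.4% of all features did not overlap at 96 h. With median-of-ratios scaling nduo-1, ctb-1, ctc-3 and nduo-5 were called lower, 4 of 10, beside 33.2% of all features. The spread shared by all 6 groups also bore on this count, as fits on the 96 h libraries alone called 5 lower and ctc-2 higher, and without the libraries rich in ribosomal RNA 4 were lower and ctc-2 higher. Leaving out injured 96 h library 4 gave 2 calls.

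In contrast, ctc-2, the gene for subunit II of cytochrome c oxidase, was not lower. Controls at 96 h read 956.7, 938.2, 921.6 and 838.2 RPKM and injured libraries 1324, 1328, 1271 and 942.8 RPKM. Injured libraries 1 to 3 lay above every control and injured library 4 among them, and the difference did not pass (log2 change 0.40 ± 0.20 SE, limma adjusted p = 0.0794). For nduo-3 the controls read 315.2, 328.3, 279.5 and 199 RPKM and the injured libraries 564.4, 386.1, 350.6 and 267 RPKM. These also overlapped, through injured library 4 (log2 change 0.46, limma adjusted p = 0.213). The changes of the 10 genes at 96 h spanned -0.82 to 0.46 on the log2 scale, with a median of -0.16 beside 0.07 over all features.

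**Figure D2:**
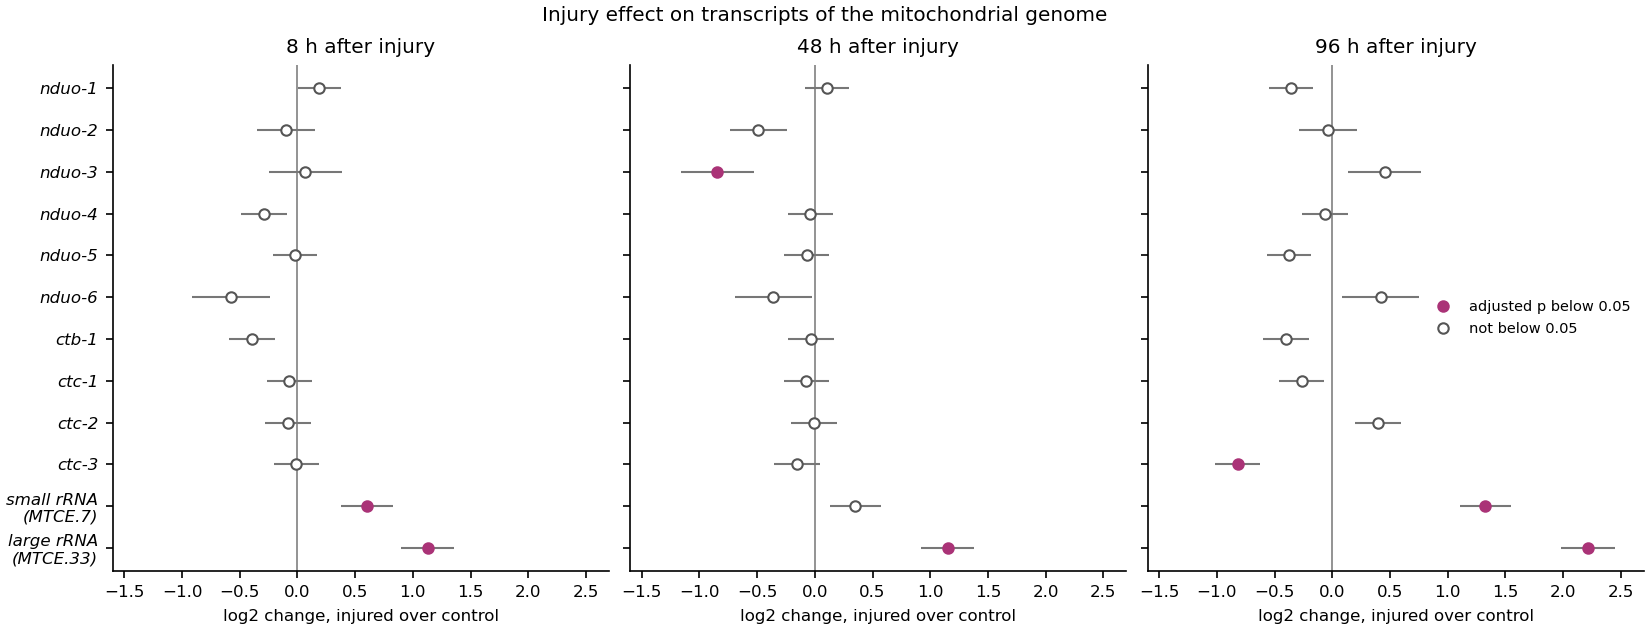
Log2 change of injured over control worms at 8, 48 and 96 h for the 10 protein-coding genes and both ribosomal RNAs (horizontal axis, points with standard errors), with filled points where the limma adjusted p was below 0.05. Filled points mark nduo-3 at 48 h (-0.85), ctc-3 at 96 h (-0.82), MTCE.33 at all 3 times (1.13, 1.15 and 2.22) and MTCE.7 at 8 and 96 h (0.60 and 1.33).

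A ratio within a library does not depend on how libraries are scaled to each other, so each gene was also set against the mean log2 level of the 10 genes in its own library. It shows unequal change among the genes and not which of them changed. At 96 h ctc-3 lay 3.15 to 3.30 log2 units above that mean in controls and 2.46 to 2.66 above it in injured worms. Over the same libraries ctc-2 lay 1.42 to 1.54 above it in controls and 1.90 to 2.05 above it after injury. Both genes encode core subunits of complex IV, and their shares of the 10 genes differed in opposite directions, with no overlap between groups for either.

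Of the 10 genes, nduo-1, ctb-1, ctc-3 and nduo-5 were all below and ctc-2 and nduo-3 all above the controls in this balance at 96 h, and the remaining 4 overlapped. Of all features set against the same mean, 57.8% did not overlap at 96 h. The difference in balance was -0.72 log2 units for ctc-3, 0.50 for ctc-2 and 0.56 for nduo-3. At 8 h only nduo-1 was apart, at 0.43 to 0.47 in injured worms and 0.04 to 0.23 in controls, which is 1 of 10 where 22.3% of features did not overlap. At 48 h only ctc-2 was apart, at 1.62 to 1.81 against 1.44 to 1.59, which is again 1 of 10, beside 37.8% of features.

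In control 48 h library 1, 9 of the 10 genes had the most extreme balance of their group. Relative to the mean of the 10 genes, ctc-3 stood at 3.24, ctc-1 at 2.28 and ctb-1 at 1.23 there, the highest of the 4 libraries. At the other end nduo-6 stood at -6.55, nduo-2 at -1.66 and nduo-3 at 0.01, the lowest. This library held 2.82 RPKM of nduo-6, while the other control 48 h libraries held 12.44, 15.43 and 9.32 RPKM. Its nduo-6 level rests on 25.8 estimated reads. The mean holds all 10 genes, so low values of nduo-6 and nduo-3 raise the balance of the others. The 9 extremes are therefore not separate observations. Control 48 h library 1 was not among the libraries rich in nuclear ribosomal RNA, and how far its balance bears on the comparisons at 48 h was not tested beyond leaving it out.

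**Figure D3:**
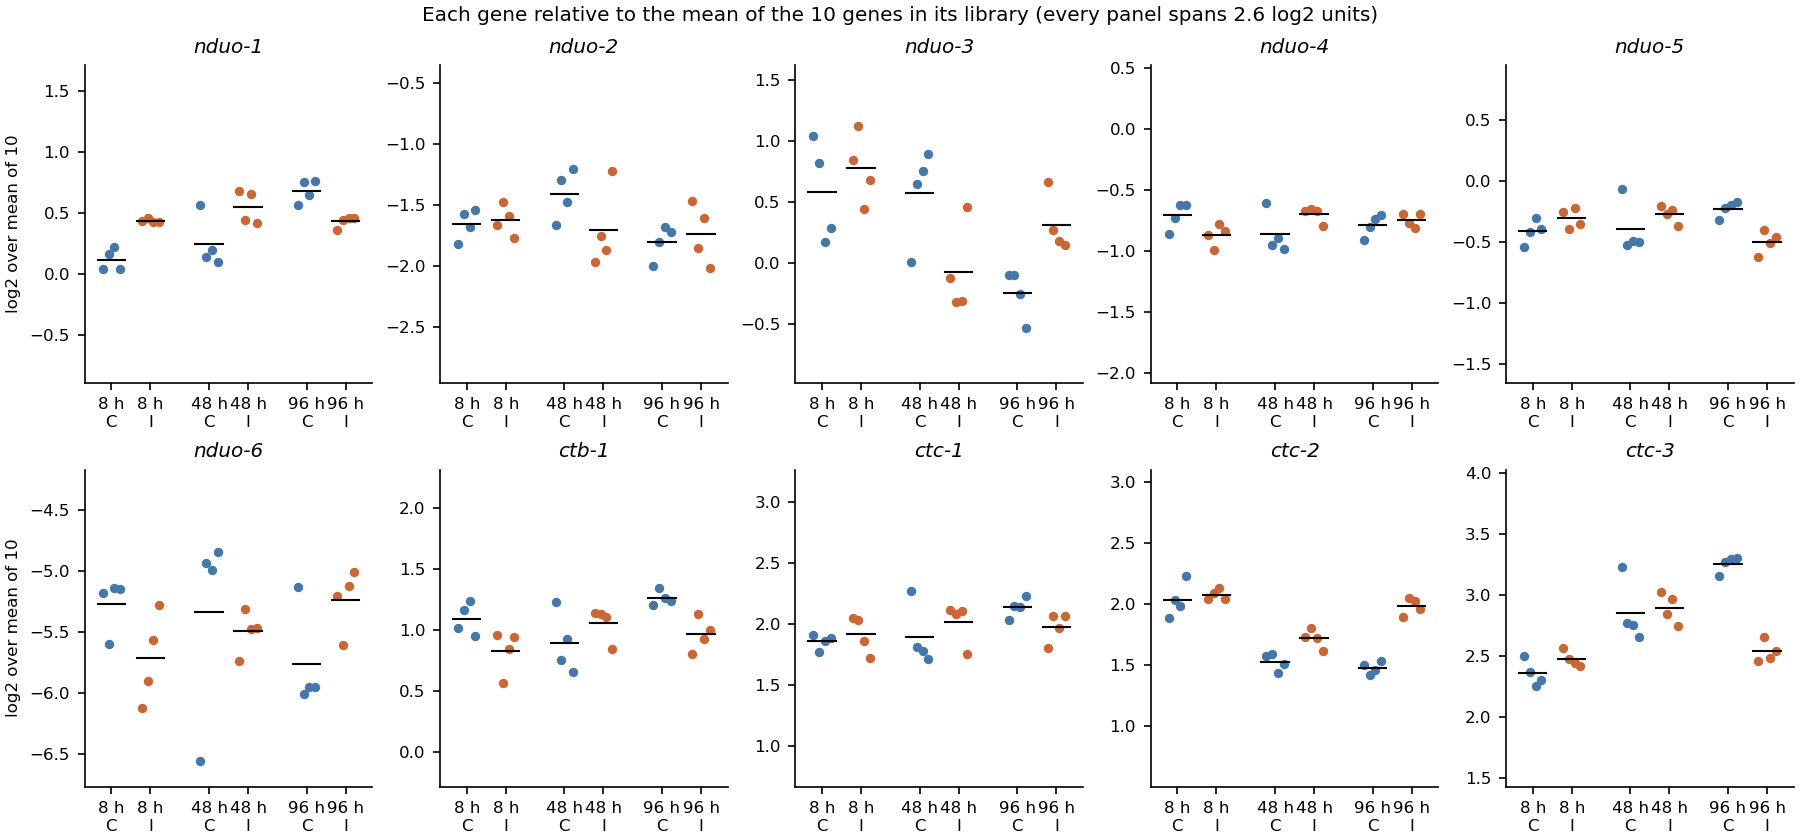
Log2 level of each gene relative to the mean of the 10 genes in the same library (vertical axes each span 2.6 log2 units) for control (C) and injured (I) worms at 8, 48 and 96 h, with 1 point per library and a bar at the mean. In controls ctc-3 rises from a mean of 2.36 at 8 h to 3.26 at 96 h, and in injured worms it ends at 2.54.

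Both treatments were then compared over time. In control worms 7 of the 10 genes were called lower at 96 h than at 8 h, where 26% of all features were called lower. The strongest were nduo-3 and ctc-2. For ctc-2 the libraries read 2111, 2133, 1780 and 2917 RPKM at 8 h and 956.7, 938.2, 921.6 and 838.2 RPKM at 96 h (log2 change -1.27 ± 0.20 SE, limma adjusted p = 1.32e-06). For nduo-3 they read 1170, 913.2, 504.2 and 754.8 RPKM at 8 h and 315.2, 328.3, 279.5 and 199 RPKM at 96 h (log2 change -1.53 ± 0.31 SE, limma adjusted p = 0.000164). In both genes every 96 h library lay below every 8 h library.

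The other 5 called in controls were nduo-6 (log2 change -1.20), nduo-2 (-0.86), nduo-4 (-0.79), ctb-1 (-0.54) and nduo-5 (-0.53). For ctc-1 the change was -0.43 with a limma adjusted p of 0.0553, for nduo-1 it was -0.15 and for ctc-3 it was 0.18, and none of these was called. The libraries of ctc-3 read 3235, 2685, 2146 and 3065 RPKM at 8 h and overlapped with those at 96 h. In total 8 of 10 members did not overlap, where 70.9% of all features did not. The median of the 10 genes was -0.67 on the log2 scale beside 0.19 over all features.

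In injured worms 9 of the 10 genes were called lower at 96 h than at 8 h, where 11.2% of all features were. The log2 changes of those called ran from -1.15 (nduo-3) to -0.55 (ctb-1), and that of nduo-6 was -0.21 and did not pass. For ctc-3 the libraries read 3067, 2987, 2445 and 2487 RPKM at 8 h and 1965, 2024, 1744 and 1413 RPKM at 96 h (log2 change -0.63 ± 0.20 SE, limma adjusted p = 0.0115). All later libraries lay below all earlier ones for ctc-3 and for the other 8 genes called, which makes 9 of 10, where 31.3% of features did not overlap. The median of the 10 genes was -0.66 beside 0.20 over all features. Without injured 96 h library 4, 5 genes were called.

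The median change of the 10 genes between 8 and 48 h was -0.55 in controls and -0.52 in injured worms, and between 48 and 96 h it was -0.04 and -0.11. In controls ctb-1, nduo-4, ctc-1, ctc-2 and nduo-5 were called lower at 48 h than at 8 h, 5 of 10 beside 30% of all features, and without the libraries rich in ribosomal RNA this became 3. It also became 3 without control 8 h library 4 and 8 without control 48 h library 3. In injured worms nduo-1, nduo-2, ctc-1, ctc-2, nduo-3 and nduo-5 were called lower over the same interval, 6 of 10 beside 5.58% of all features, and 2 were called without injured 8 h library 1, injured 48 h library 1 or injured 48 h library 3, and 3 without injured 8 h library 2. From 48 to 96 h, controls had 1 member called lower, nduo-3 (log2 change -0.97, limma adjusted p = 0.0417), beside 1.26% of all features. That call was lost without the libraries rich in ribosomal RNA and with any of control 48 h libraries 2, 3 and 4 or the control 96 h libraries left out. Injured worms had none called in limma from 48 to 96 h, with 1 at an unadjusted p under 0.05, where 9.36% of all features were called.

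The balance among the genes moved with time as well. Between 8 and 96 h in controls, nduo-1, ctc-1 and ctc-3 moved up relative to the mean of the 10 genes and ctc-2 and nduo-3 down, with no overlap, 5 of 10 where 67.7% of features did not overlap. The shift was 0.90 log2 units for ctc-3 and -0.82 for nduo-3. In injured worms 9 of the 10 genes overlapped between 8 and 96 h, and nduo-5 was all below, so that 1 of 10 did not overlap beside 56.5% of features.

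The difference between the injury effects at separate times was tested as an interaction. Between 8 and 48 h none of the 10 genes passed in limma, with none at an unadjusted p under 0.05, where 36.9% of all features were called. Without control 48 h library 1 or injured 48 h library 4, 1 was called. Between 8 and 96 h ctc-3 was called, its injury effect being lower at 96 h by 0.81 log2 units (change -0.81 ± 0.28 SE, limma adjusted p = 0.0176), 1 of 10 where 20.1% of features were called lower. It held in all 13 alternatives and was lost when control 8 h library 3 (limma adjusted p = 0.0558) or injured 96 h library 4 (0.0506) was left out, and 2 members were called without control 96 h library 1. Between 48 and 96 h the injury effect of nduo-3 went from -0.85 to 0.46 (log2 difference 1.30 ± 0.44 SE, limma adjusted p = 0.0482), 1 of 10 where 0.662% of features were called higher. It passed in 9 of the 13 alternatives, and not without the libraries rich in ribosomal RNA. With 1 library left out at a time its limma adjusted p reached 0.0975, and it was lost for most of them.

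The ribosomal RNAs of the same genome were higher after injury. For MTCE.33, the large ribosomal RNA, controls at 8 h read 174.4, 123.6, 133.3 and 240.6 RPKM and injured libraries 398.4, 447.2, 362.3 and 245.7 RPKM. At 48 h controls read 117.1, 160, 203.1 and 115.6 RPKM and injured libraries 229.1, 509.1, 281 and 329 RPKM. At 96 h controls read 152.7, 168.7, 161.9 and 170.5 RPKM and injured libraries 899, 753.3, 749.6 and 661 RPKM. In the deposited scale no injured library fell among the controls at any time, and the gap was smallest at 8 h, where injured library 4 stood just over control library 4. With median-of-ratios scaling the groups overlapped at 8 and 48 h and were apart at 96 h.

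At 8 h the log2 change of MTCE.33 was 1.13 ± 0.23 SE, with a limma adjusted p of 0.000317. It was 1.15 at 48 h, with a limma adjusted p of 7.42e-05, and 2.22 at 96 h, with a limma adjusted p of 4.67e-10. All 3 were called in each of the 13 alternatives. The change at 48 h ran from 0.62 to 1.35 over them and was lowest with median-of-ratios scaling (0.62, limma adjusted p = 0.0458), at a time when 45.8% of all features were called higher in the deposited scale. The effect was larger at 96 h than at 8 h (log2 difference 1.09, limma adjusted p = 0.00768) and than at 48 h (1.07, limma adjusted p = 0.0247). Among features in general, 11% were called higher and 11.4% lower at 8 h, and 32.8% higher at 96 h.

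For MTCE.7, the small ribosomal RNA, controls at 96 h read 618.3, 768.4, 735.3 and 671.2 RPKM and injured libraries 1924, 1787, 1783 and 1517 RPKM. They were far apart (log2 change 1.33 ± 0.22 SE, limma adjusted p = 3.54e-06). At 8 h controls read 370.5, 304.8, 302.4 and 506.2 RPKM and injured libraries 668.4, 647, 462.2 and 460.6 RPKM, which overlapped through control library 4 (log2 change 0.60, limma adjusted p = 0.0449). That call was lost in 5 of the 13 alternatives and with 5 of the 8 libraries left out in turn. At 48 h MTCE.7 did not pass (log2 change 0.35, limma adjusted p = 0.176), and with median-of-ratios scaling its change was -0.18.

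Set against the protein-coding genes of the same library, the reads on both ribosomal RNAs were higher in injured worms at every time. Their ratio to the reads on the 10 genes was 0.034 to 0.0496 in controls and 0.0649 to 0.0833 in injured worms at 8 h. It was 0.0617 to 0.0814 and 0.109 to 0.153 at 48 h, and 0.0781 to 0.0909 and 0.295 to 0.349 at 96 h. The injured mean was 1.88, 1.63 and 3.86 times the control mean at 8, 48 and 96 h, with no overlap at any time. The large ribosomal RNA moved more than the small one. The ratio of MTCE.33 to MTCE.7 in RPKM was 0.219 to 0.254 in controls and 0.42 to 0.467 in injured worms at 96 h.

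Mitochondrial ribosomal RNA is only in part recovered by poly(A) selection, and its share of mapped reads was small, at 0.0576 to 0.0695% in controls and 0.168 to 0.219% in injured worms at 96 h. Nuclear ribosomal RNA did not rise with it at that time, at 1.38 to 1.84% of reads in controls and 0.659 to 1.51% in injured worms. A difference in recovery between the groups was not tested. Since nduo-3 adjoins MTCE.33, the reads of both may share a border, and the part of this in their levels was not tested. In injured worms at 96 h MTCE.33 was 4.68 times the control mean and nduo-3 1.4 times. At 8 h they were 2.16 and 1.03 times the control mean, and at 48 h 2.26 and 0.563 times.

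**Figure D4:**
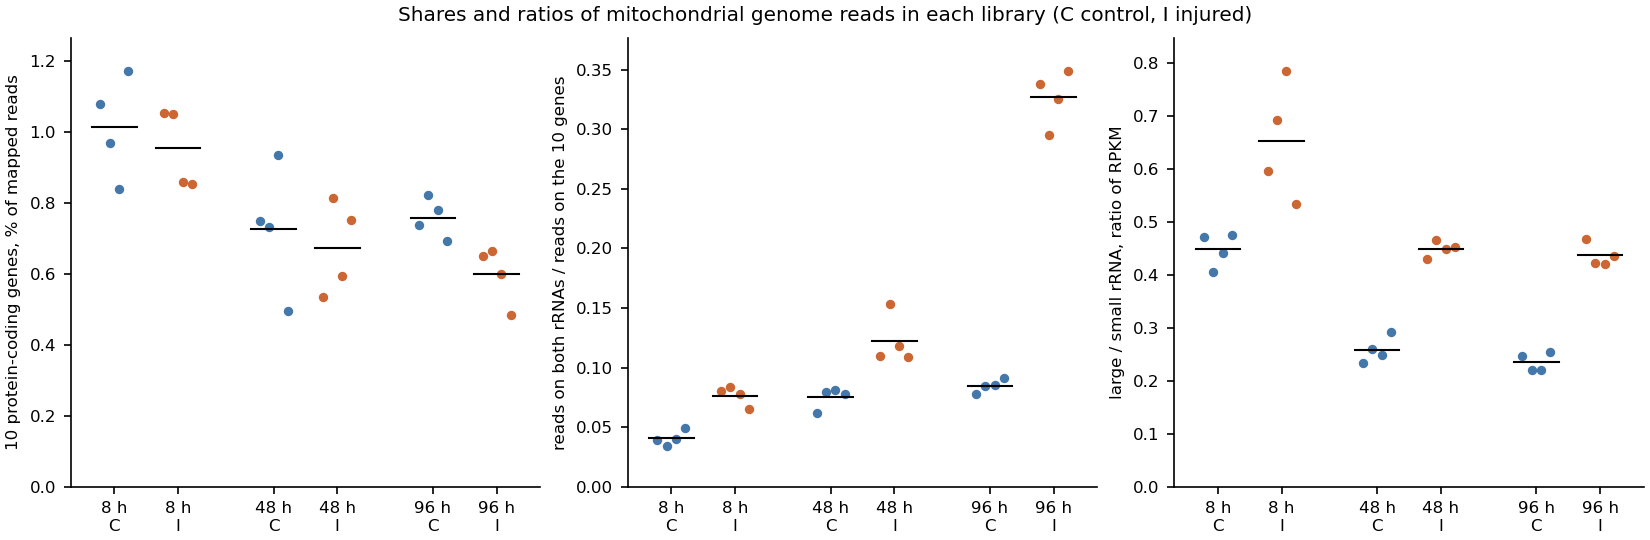
Share of mapped reads on the 10 protein-coding genes in percent (left), reads on both mitochondrial ribosomal RNAs per read on the 10 genes (middle), and the ratio of large to small ribosomal RNA in RPKM (right), per library with a bar at the group mean, for control (C) and injured (I) worms. At 96 h the injured libraries lie lower on the left (0.483 to 0.664% against 0.692 to 0.822%) and higher in the middle (0.295 to 0.349 against 0.0781 to 0.0909).

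The other protein-coding genes of the genome are atp-6, a subunit of the proton channel of ATP synthase, and ndfl-4, a short complex I gene. At 96 h atp-6 (2634 to 3235, overlapping nduo-1 by 2 bases) read 924, 837.8, 765.7 and 662.8 RPKM in controls and 924.9, 867.1, 746.5 and 602.2 RPKM in injured worms. These libraries overlapped across their whole range. Its injury effects of -0.26, -0.10 and -0.03 log2 units at 8, 48 and 96 h were not called in the deposited scale. With median-of-ratios scaling the effect at 48 h was called lower (-0.63, limma adjusted p = 0.0224). Like most of the 10 genes, atp-6 fell between 8 and 96 h in controls (-0.71 log2 units, limma adjusted p = 0.00559), and in injured worms that difference did not pass (-0.48, limma adjusted p = 0.0898), but was called with median-of-ratios scaling (-0.73, limma adjusted p = 0.0119). For ndfl-4 (549 to 783) the level was at most 1.65 RPKM and 0 in 3 libraries, and it was left out of the tests.

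Most of the respiratory chain is encoded in the nucleus, and 62 of 69 listed nuclear subunit genes of complexes I to V were found in the table, some under their sequence names, and tested. At 8 h after injury 12 of 62 were lower and none higher, with a median log2 change of -0.39, where 11.4% of all features were lower. With median-of-ratios scaling 38 of 62 were lower and none higher, where 16.6% of all features were lower and 20.9% higher. The lowest adjusted p included asg-2, an ATP synthase subunit g gene (log2 change -0.88, limma adjusted p = 0.00248), and sdha-1, a catalytic subunit gene of complex II (-0.72, limma adjusted p = 0.00436). At 48 h 51 of 62 were higher, where 45.8% of all features were, with a median of 0.63 beside 0.48 over all features. Under median-of-ratios scaling 13 were higher and 6 lower, with a median of 0.10, where 30.5% of all features were higher and 28% lower. At 96 h 13 were higher and 6 lower, with a median of 0.28, and under median-of-ratios scaling 30 were higher and 7 lower, where 37.4% of all features were higher.

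By complex, 25 of 28 complex I genes were higher at 48 h and 6 at 96 h, 7 of 10 complex III genes at 48 h and 2 at 96 h, and 13 of 16 complex V genes at 48 h and 3 at 96 h, against the 45.8% of all features higher at 48 h and 32.8% at 96 h. At 96 h 1 complex I, 2 complex III and 2 complex V genes were lower. With median-of-ratios scaling the genes higher at 48 h were 8 of complex I, 2 of complex III, 2 of complex V and 0 of complex IV, and 1, 2 and 2 genes of complexes I, III and V were lower. At 96 h under that scaling 18, 3 and 6 genes of complexes I, III and V were higher and 1, 3 and 2 lower. Of all features 37.4% were then higher and 33.2% lower. Of the 4 complex IV genes found, 3 were higher at 48 h in the deposited scale and none was called in either direction at 96 h in limma, with none at an unadjusted p under 0.05 there. The nuclear list and the ctc genes are subunits of the same enzyme. At 96 h ctc-3 was lower, while the 4 nuclear complex IV genes found, of 7 listed, had a median of 0.15. The other ctc genes were not called in the deposited scale at 96 h and went in opposite directions, ctc-1 at -0.27 and ctc-2 at 0.40.

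Some nuclear subunits have near relatives that went in opposite directions. At 96 h ucr-2.3, a complex III core protein gene, was higher (log2 change 1.95, limma adjusted p = 1.69e-08) and ucr-2.2 lower (-0.85, limma adjusted p = 0.000458). Likewise asb-1, a subunit b gene of ATP synthase with germline expression in C. elegans, was higher (1.53, limma adjusted p = 4.38e-07) and asb-2 lower (-0.76, limma adjusted p = 0.00101). The complex I gene nduf-2.2 was higher by a similar amount (1.95, limma adjusted p = 3.2e-08). Reads shared between such relatives may have been split in the counting.

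Over time in control worms 48 of the 62 nuclear subunit genes were lower at 96 h than at 8 h and none higher, where 26% of all features were lower. Their median was -0.68, which is next to the -0.67 of the mitochondrial genome genes. In injured worms 4 of 62 were lower over the same interval, where 11.2% of all features were. Their median was -0.04, beside -0.66 for the mitochondrial genome genes. With median-of-ratios scaling the count in injured worms was 31 lower and 1 higher, where 3714 of the 14813 features were lower and 3257 higher. The comparisons share libraries, and no test was run between the lists.

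Proteins of the mitochondrial ribosome formed a list of 66 nuclear genes. At 8 h none was called in limma, where 22.4% of all features were, with 1 at an unadjusted p under 0.05. With median-of-ratios scaling 8 were called higher, where 20.9% of all features were. At 48 h 65 of 66 were higher, with a median log2 change of 1.41 (0.89 with median-of-ratios scaling, where 63 were called), and at 96 h 65 of 66 were higher, with a median of 1.22. Of all features 45.8% were higher at 48 h and 32.8% at 96 h, or 30.5% and 37.4% with median-of-ratios scaling. Examples at 96 h were mrps-31 (1.67, limma adjusted p = 5.74e-08) and mrpl-49 (1.66, limma adjusted p = 1.84e-07). In controls 35 were lower and 2 higher at 96 h than at 8 h, where 26% of all features were lower. With median-of-ratios scaling 59 were lower and 2 higher, where 36.1% of all features were lower. In injured worms 33 were higher, where 23.5% of all features were called higher.

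A further list held 13 genes for the expression and upkeep of the mitochondrial genome, of which 11 were tested. All 11 were higher after injury at 48 h (median 1.41), a time when 45.8% of all features were called higher. By 96 h 10 were higher (median 1.27), beside 32.8% of all features. Median-of-ratios scaling called 8 of the list higher at 48 h, against 30.5% of all features. It called 11 higher at 96 h, against 37.4%. At 96 h hoe-1, a transfer RNA 3' processing enzyme gene (log2 change 2.02, limma adjusted p = 3.1e-10), tfbm-1, a mitochondrial methyltransferase gene (1.93, limma adjusted p = 2.71e-08), and tufm-2, a mitochondrial elongation factor gene (1.55, limma adjusted p = 9.27e-07), had the lowest adjusted p. At 8 h hoe-1 was called higher (1.07, limma adjusted p = 0.000141) and no other gene of the list was, where 11% of all features were. With median-of-ratios scaling 4 were called higher, where 20.9% of all features were.

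**Figure D5:**
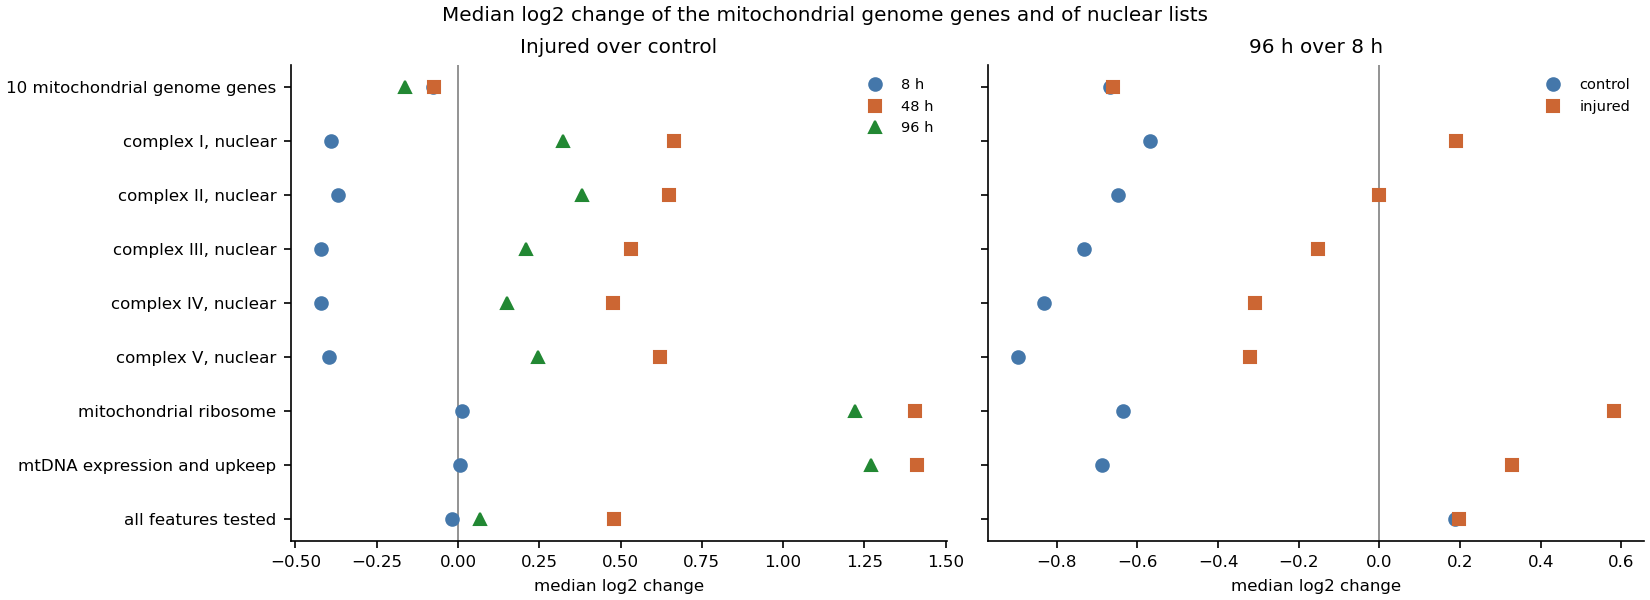
Median log2 change of the 10 mitochondrial genome genes, of lists of nuclear genes for the respiratory chain complexes, the mitochondrial ribosome and mitochondrial genome upkeep, and of all features tested, for injured over control worms at each time (left) and for 96 h over 8 h in each treatment (right). The mitochondrial genome genes lie at -0.08, -0.07 and -0.16 on the left, where the mitochondrial ribosome lies at 0.01, 1.41 and 1.22.

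Markers of other tissues were counted in the same comparisons. Of 38 germline and oocyte genes none was called at 8 h in limma or with median-of-ratios scaling, with none at an unadjusted p under 0.05, and 36 were higher and 2 lower after injury at 48 h (median 1.87) and 35 higher and 2 lower at 96 h (median 1.98). Of all features 45.8% were higher and 10.2% lower at 48 h, and 32.8% higher and 28.4% lower at 96 h. In controls 35 of 38 were lower at 96 h than at 8 h, where 26% of all features were lower. The summed RPKM of the list went the other way at 96 h, at 13064 to 13755 in controls and 7003 to 7894 in injured worms. The eggshell layer genes perm-2 and perm-4, the 2 members that were lower, carried most of the sum in controls at 96 h. Without both it was 755 to 1332 RPKM in controls and 3180 to 5793 RPKM in injured worms at 96 h. No list member was at 0 in every library of a group.

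Of 10 intestinal genes 9 were lower and none higher after injury at 96 h (median -1.62), with summed levels of 1814 to 2211 RPKM in controls and 444 to 922 RPKM in injured worms. All 6 vitellogenin genes, which encode yolk proteins made in the intestine, were lower at 48 h (median -1.78) and at 96 h (median -1.89). Of 14 body wall muscle genes 8 were higher at 8 h (median 0.77), none was called at 48 h in limma (1 at an unadjusted p under 0.05, and 8 lower with median-of-ratios scaling) and 4 were lower at 96 h. Of 12 neuronal genes 4 were higher at 8 h, 9 at 48 h and 3 at 96 h, and with median-of-ratios scaling 9 were higher at 8 h, 4 higher and 1 lower at 48 h, and 3 higher and 1 lower at 96 h. Over all features, 11% were higher at 8 h, and 45.8% higher and 10.2% lower at 48 h. At 96 h 32.8% were higher and 28.4% lower, so the muscle genes lower and neuronal genes higher then were near or below these shares. With median-of-ratios scaling 20.9% were higher at 8 h, and 30.5% higher and 28% lower at 48 h. It called 37.4% higher and 33.2% lower at 96 h. The part of the tissue marker shifts in the levels of the mitochondrial genome genes was not tested.

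Pharynx, hypodermis and sperm lists were smaller. At 8 h 2 of 5 pharynx genes tested and 1 of 6 hypodermis genes were higher, where 11% of all features were. With median-of-ratios scaling 3 pharynx genes were higher then, where 20.9% of all features were. At 48 h 3 pharynx genes were higher and 1 lower (1 and 1 with median-of-ratios scaling). For hypodermis 1 was higher and 1 lower at 48 h, where 45.8% of all features were higher and 10.2% lower. At 96 h 1 pharynx gene was higher and 2 lower, of 6 hypodermis genes 1 was higher and 1 lower, and of 3 sperm genes 1 was lower. Beside these, 32.8% of all features were higher and 28.4% lower at 96 h.

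Within groups, the 10 genes varied together from library to library. Over the 24 libraries, with each group's mean removed, the 45 pairs of genes had Pearson correlations from 0.158 to 0.963 with a median of 0.777. The highest was between nduo-4 and nduo-5, and the lowest pairs all held nduo-6, the gene with the fewest reads. With libraries set to the same total outside the mitochondrial genome and ribosomal RNA, the median was 0.791. The points share libraries and depth, and these values are a description.

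Across all 24 libraries nduo-4 was closest to the mean of the 10 genes (r = 0.957) and ctc-3 farthest from it (r = 0.603). The mean includes each of these genes, which raises their values over those of features outside it. The 5 nuclear features most like that mean, over the same 24 libraries, were spp-4 (r = 0.906), pud-2.1 (0.9), pud-2.2 (0.899), pud-1.2 (0.895) and spp-18 (0.894). The spp genes encode saposin-like proteins, and the pud genes are near-identical copies among which reads may have been split. With median-of-ratios scaling spp-4 was again the closest (r = 0.914). The small ribosomal RNA had r = -0.40 and the large one r = -0.11 with the same mean.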

How the data were processed

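Whole-worm poly(A) RNA was sequenced by the authors as paired reads and quantified in CLC Genomics Workbench against ce11. The annotation release, mapping settings and strand setting are not given in the sources used here. The deposited table gives RPKM for 24 libraries as calculated by the authors, and its columns of the authors' own fold changes and p-values were not used. Columns name a group but no replicate number, all 24 were mapped to a group, and 0 columns were left unmapped. Depth was estimated from the spacing of low RPKM values (51.6 to 59.5% of low values within 0.1 reads of a whole number in 23 libraries). Reads on a gene are estimates from RPKM, exon length and depth, and intervals of counting error were not drawn from them.

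The test was limma 3.58.1 in R 4.3.3 on log2(RPKM + 0.5), so changes of low genes are understated, over the 14813 features with RPKM of at least 1 in at least 4 libraries. It used a mean per group over all 24 libraries, eBayes with trend and robust settings, 12 contrasts and a Benjamini-Hochberg adjusted p below 0.05. For single genes, all 70 arrangements of 4 against 4 libraries gave an exact permutation p, two-sided. The fit was tested on simulated data. Alternatives changed the pseudocount, filter, scaling, weights, libraries and fit. Shares and figures were made in Python 3.11.15 with pandas 2.3.3, numpy 2.4.6 and matplotlib 3.10.9. Gene positions came from the WBcel235 annotation, the same assembly as ce11.

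All 10 members are named, with the other mitochondrial genome genes, up to 3 genes with the lowest adjusted p per nuclear list and comparison, the 5 features most like the members' mean, and cdc-25.1. The genes perm-2 and perm-4 were named after their values were seen. The members and lists were chosen with earlier results of these data known. No sequence is printed.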

Additional observations from a re-analysis of the deposited data

Results flagged for a closer look

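Among 72 sets of 4 libraries looked at, 2 held a library far from the other 3 by Dixon's ratio test, and chance flags about 1 set in 20. In control worms at 96 h, nduo-6 stood at 9.15 RPKM in library 1 and between 4.17 and 4.98 RPKM in the others. In injured worms at 96 h, ctc-2 stood at 942.8 RPKM in library 4 and between 1271 and 1328 RPKM in the others.

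The injury effect differed between times by an interaction term in limma for 5 results. For ctc-3 the effect at 96 h was below that at 8 h by a log2 difference of -0.81 (adjusted p = 0.0176). For MTCE.33 the effect at 96 h exceeded that at 8 h by 1.09 (adjusted p = 0.00768) and that at 48 h by 1.07 (adjusted p = 0.0247). For MTCE.7 it exceeded that at 48 h by 0.98 (adjusted p = 0.0308), and for nduo-3 the difference between 96 and 48 h was 1.30 (adjusted p = 0.0482).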

How the results depend on the processing

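No paired analysis was possible because the columns carry no replicate numbers. Limits include the shared poly(A) selection, the nuclear ribosomal RNA in 4 libraries and the scale at 48 h, and causes were not tested beyond the settings named. 1 setting, median-of-ratios scaling without the libraries over 5% ribosomal RNA, was chosen after seeing the data.

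Members called of 10 for injury at 8, 48 and 96 h were 0, 1 and 1. They were 9 and 4 at 48 and 96 h with median-of-ratios scaling, 1, 3 and 4 with the same RPKM total, 1, 7 and 4 with the same total outside mitochondrial genome and rRNA, 1, 7 and 6 with array weights, and 4 and 4 in the added setting. Every member called under median-of-ratios and both total scalings was lower. Of 14813 features 4144 and 4918 were lower at 48 and 96 h with median-of-ratios scaling. With the same RPKM total 2253, 2340 and 4636 were lower at 8, 48 and 96 h, and 2587, 3207 and 4948 outside mitochondrial genome and rRNA. At 96 h the members called were 3 scaled to the members' mean, 5 without libraries over 5% rRNA and 6 with the compared groups only. The 3 under the members' mean were 2 higher and 1 lower, beside 4913 features higher and 3705 lower. Leaving out 1 library gave 0, 0 to 3 and 1 to 2.

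Control 48 against 8 h had 5 calls, with 3 under median-of-ratios scaling, without libraries over 5% rRNA and with the compared groups only, 2 under the members' mean and 3 to 8 with 1 library out. Control 96 against 48 h had 1, with 0 without a filter, with array weights, without libraries over 5% rRNA and in the added setting, 2 with median-of-ratios scaling, 4 with the same total outside mitochondrial genome and rRNA, 3 with the members' mean and 0 to 2 with 1 library out. Control 96 against 8 h had 7, with 4 under the members' mean and 6 to 8 with 1 library out. Injured 48 against 8 h had 6, with 9 under median-of-ratios scaling, the same total outside mitochondrial genome and rRNA and the added setting, 8 with the same RPKM total and with array weights, 7 without libraries over 5% rRNA, 4 with the compared groups only, 3 under the members' mean and 2 to 7 with 1 library out. Injured 96 against 48 h had 0, with 1 under both total scalings and without libraries over 5% rRNA and 3 with array weights. Injured 96 against 8 h had 9, with 0 under the members' mean and 5 to 9 with 1 library out. The number of features called also changed with the scaling. For injured 48 against 8 h 827 of 14813 features were lower in the deposited scale and 2579 with median-of-ratios scaling. Counts under the members' mean pool both directions. Scaling to the members' mean takes out any change that the members share. Its counts, here and in the other comparisons, therefore show only unequal change among the members and cannot test whether a shared fall holds.

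The difference of injury effects between 8 and 48 h had 0 calls, with 4 under median-of-ratios scaling, 2 with the same total outside mitochondrial genome and rRNA, 1 under the members' mean and 0 to 1 with 1 library out. Between 8 and 96 h it had 1, with 2 under median-of-ratios scaling, both total scalings, the members' mean, without libraries over 5% rRNA and the added setting, 4 with array weights, 3 with the compared groups only and 0 to 2 with 1 library out. Between 48 and 96 h it had 1, with 0 at a pseudocount of 0.1, without a filter, without libraries over 5% rRNA and in the added setting, 2 with median-of-ratios scaling, the same total outside mitochondrial genome and rRNA, and the members' mean, 3 with array weights and 0 to 2 with 1 library out. With median-of-ratios scaling the 4 between 8 and 48 h were lower, beside 3246 of 14813 features. The 2 between 48 and 96 h were higher, beside 1162 features.

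The log2 changes that took the other sign, by setting, were as follows. Under the members' mean a shared change is taken out, so a sign there gives only the change of a gene relative to that mean. Scaled to the members' mean at 8 h, nduo-2 was 0.029, nduo-5 0.11, ctc-1 0.059, ctc-2 0.042 and ctc-3 0.12. At 48 h nduo-4 was 0.16, nduo-5 0.12, ctb-1 0.16, ctc-1 0.12, ctc-2 0.19 and ctc-3 0.043, and at 96 h nduo-2 was 0.068 and nduo-4 0.043. In control 96 against 8 h nduo-1 was 0.57, nduo-5 0.19, ctb-1 0.17 and ctc-1 0.28, and in injured worms nduo-4 was 0.12, nduo-6 0.48, ctb-1 0.14, ctc-1 0.059 and ctc-3 0.061. With array weights nduo-3 was -0.090 and nduo-5 0.0076 at 8 h, nduo-1 -0.14 and nduo-6 0.22 at 48 h, and nduo-2 0.045 at 96 h. Without libraries over 5% rRNA nduo-3 was -0.085 and nduo-5 0.021 at 8 h and nduo-1 -0.15 at 48 h, and in the added setting nduo-3 was -0.13 at 8 h, nduo-1 -0.30 at 48 h and MTCE.33 -0.15 in control 96 against 8 h. With median-of-ratios scaling nduo-5 was 0.040 and ctc-3 0.054 at 8 h, nduo-1 -0.43 and MTCE.7 -0.18 at 48 h, and MTCE.33 -0.15 in control 96 against 8 h. With the same RPKM total nduo-1 was -0.11 at 48 h and MTCE.33 -0.15, and outside mitochondrial genome and rRNA nduo-1 was -0.25, MTCE.7 -0.0026 and MTCE.33 -0.16.

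With 1 library left out, the sign changed within these ranges of log2 change. At 8 h they were -0.19 to 0.0091 for nduo-2, -0.15 to 0.25 for nduo-3, -0.072 to 0.054 for nduo-5, -0.15 to 0.022 for ctc-1, -0.19 to 0.050 for ctc-2 and -0.13 to 0.069 for ctc-3. At 48 h they were -0.071 to 0.24 for nduo-1, -0.20 to 0.11 for nduo-4, -0.23 to 0.055 for nduo-5, -0.24 to 0.13 for ctb-1, -0.26 to 0.047 for ctc-1 and -0.13 to 0.12 for ctc-2. At 96 h they were -0.20 to 0.17 for nduo-2 and -0.15 to 0.034 for nduo-4, and -0.12 to 0.20 for MTCE.33 in control 96 against 8 h.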
